A study of Mus musculus with 8 samples.

Results

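Gene expression in the ipsilateral hemisphere was compared between PMCAO and sham-operated mice that had received saline, 6 h after the operation. PMCAO is permanent occlusion of the middle cerebral artery, here by a filament inside the vessel. The comparison used the saline channels of 4 of the 8 arrays of the series, 2 sham and 2 PMCAO arrays that shared a slide. On the arrays labelled Pooled 1 the saline RNA carried Cy3 (green), and on those labelled Pooled 2 it carried Cy5 (red). The other channel of every array held RNA of mice of the same operation injected with 1 pmol PACAP38. That channel also entered the saline values through the normalization of the arrays, and its own differences are used below only as a second pair of pools. All mice were male C57BL/6J, 8 to 12 weeks old by the labels, under sevoflurane, and received 1 μL of fluid into the cerebral ventricle right after surgery. Sham surgery went as far as laying open the external carotid artery before closure. PMCAO mice were chosen for neurological grades G1 and G2, sham mice at random. The sample was the hemisphere of the occluded side after removal of olfactory bulb and cerebellum, so that infarct core, penumbra and non-ischemic tissue are mixed in it. Per the methods, each group was 1 pool of 3 mice (300 ng RNA each) and the same RNA was labelled with each dye, so the 2 dyes are technical repeats although the labels number the pools 1 and 2. There is therefore no test of PMCAO against sham with saline, and no value below carries an error between mice.

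When a large cerebral artery closes, cells in its territory lose oxygen and glucose within minutes, membranes depolarize, and glutamate and calcium rise. Surviving neurons and glia then transcribe immediate early genes, heat shock genes and inflammatory mediators over the following hours, and leukocytes enter the tissue from the blood. Genes that mark neurons and resting glia can fall as cells die. In RNA of a hemisphere, fewer cells of a type and less RNA per cell cannot be told apart.

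Values are normalized signals of a channel in arbitrary units, which include 50 units added during background correction, and log2 differences are PMCAO minus sham within the same dye. Where both signals of a group are given, the first is Cy3 and the second Cy5. Each mean log2 difference is followed by the SD over the 2 dyes, a technical spread. Of 41174 probes on the array, 24116 were tested, namely those unflagged on all 4 arrays and well above background in both channels of at least 1 group. A probe was called higher or lower where it passed 1.5-fold in the same direction in both dyes. Such a call favours signals of the 2 groups that do not overlap, and the share of all genes without overlap was not counted. The arrays read 62.1% to 74.5% of spots well above background in the saline channels, with median spot signals of 62.0 to 163 over local backgrounds of 44.5 to 49.

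One array stood apart, and this touches every difference taken in Cy5. On the sham Pooled 2 array both channels correlated at 0.996 with each other over 21291 probes but at only 0.863 to 0.906 with the channels of the other 3 arrays, which correlated at 0.980 to 0.996 among themselves. The SD of the Cy5 difference over the tested probes was 0.82 on the log2 scale, against 0.34 in Cy3. The 2 dyes differed with an SD of 0.79 in sham and of 0.23 in PMCAO. The departure of this array followed the base composition of the probes, with a correlation of -0.58 between deviation and G and C content. Probes under 38% G and C (6759 probes) had a median difference of -0.17 in Cy3 and -0.62 in Cy5, and probes of at least 50% (4798 probes) had 0.16 and 0.51. The PMCAO Pooled 1 array had a smaller deviation, with an SD of 0.27, and its saline channel correlated at 0.56 with G and C content. Probes called higher had a median of 51.7% G and C and those called lower 35%, against 43.3% for all tested probes. What set this array apart was not tested.

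**Figure D1:**
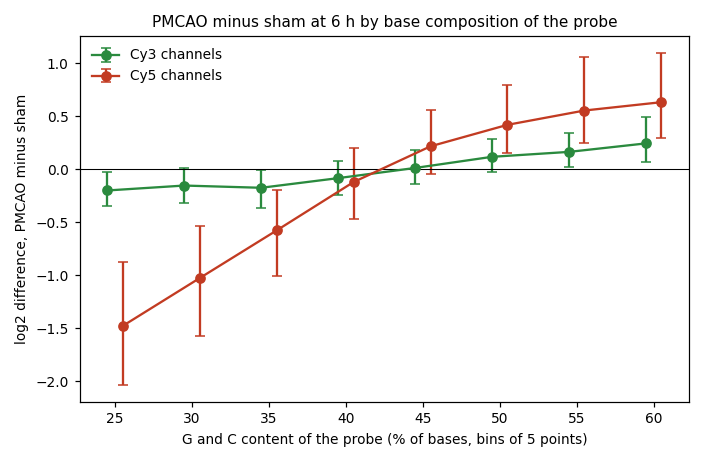
Median log2 difference between PMCAO and sham (vertical axis) of tested probes in bins of 5 points of G and C content (horizontal axis, % of bases), in Cy3 and Cy5, with bars from the lower to the upper quartile of probes. The Cy5 medians climb from -1.48 in the 25% bin to 0.63 in the 60% bin, the Cy3 medians from -0.20 to 0.24.

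Probes that carry the name of a single gene showed the link with base composition too, although they need not read the same transcript. Among 1792 genes with probes at least 10 points of G and C apart, the probe richest in G and C lay above the poorest by a median of 0.94 in Cy5 and did so in 86.3% of genes. In Cy3 the gap was 0.24, above 0 in 76.5% of genes, and in the 24 h saline pools it was 0.04 and 0.08 over 2276 genes. *Gfap*, the intermediate filament of astrocytes, and *Mt1*, a metal-binding metallothionein, are given as examples of genes with several probes. The *Gfap* probes shown are closer than 10 points in G and C, and its probe richer in G and C is not shown. The first 30 of the 60 bases of 4 of their probes follow, with G and C in capitals.
Gfap, 35% G and C: tGCtCtatGCatataCGtaatGtCaCCtat
Gfap, 38.3% G and C: GGttatattaaCaGaGCtaGCCtatGCtaa
Mt1, 51.7% G and C: aaCtGGCtCtGaGaaatGtCCtttGCttCC
Mt1, 68.3% G and C: CCtGCtGtCCCGtGGGCtGCtCCaaatGtG
The *Gfap* probes differed by -0.06 in Cy3 and -0.38 in Cy5 and by -0.41 in Cy3 and 0.27 in Cy5, in the order shown. The *Mt1* probe of 51.7% differed by 0.96 in Cy3 and 1.08 in Cy5 and was called higher, and that of 68.3% by 0.30 in Cy3 and 2.71 in Cy5. In both genes the richer of the shown probes read higher in Cy5 but lower in Cy3, against the Cy3 link above. Because of the link over the tested probes, most call counts, list medians and calls are also given after an adjustment. It subtracts, within each dye, a smooth curve of the difference on G and C content. This adjustment was added after seeing the data. It takes out the part of the difference that goes with G and C content, and the Cy5 deviation of the array that remains after it is not removed.

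Of the 24116 probes, 635 (2.63%) were called higher in PMCAO and 450 (1.87%) lower, with a median log2 difference of 0.01 over all. By the brightest probe of each gene, 408 (2.8%) of 14593 genes were called higher and 335 (2.3%) lower. After the adjustment, 346 of the 635 higher and 80 of the 450 lower probes kept their call, and 88 and 11 others gained one. By gene this gave 266 (1.82%) higher and 71 (0.487%) lower. In Cy3 alone, which leaves the sham Pooled 2 array out, 639 genes (4.38%) passed 1.5-fold higher and 598 (4.1%) lower. The Cy3 and Cy5 differences correlated at 0.44 over the tested probes and at 0.29 after the adjustment, against 0.76 in the 24 h saline pools. The share of calls that were higher was 58.5% as processed here and 82.7% after the adjustment.

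**Figure D2:**
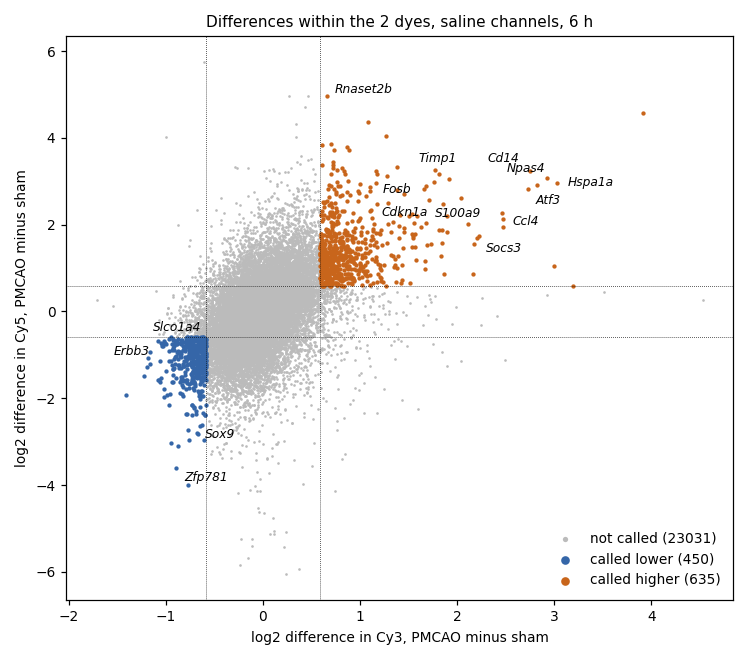
Log2 difference between PMCAO and sham in Cy3 (horizontal) and Cy5 (vertical) for the 24116 tested probes, with the 635 called higher and the 450 called lower in colour, dotted lines at 1.5-fold and selected genes named. The Cy5 differences spread more widely, and Hspa1a, Npas4, Cd14 and Atf3 lie far from 0 in both dyes.

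The immediate early genes encode transcription factors that neurons and glia switch on within minutes of a stimulus. Of the 10 AP-1 genes tested, 4 were called higher, none lower, and the list median was 0.46, against 2.8% and 2.3% of all genes tested and their median of 0.01. *Atf3*, which is induced by many cell stresses, had signals of 95.7 and 82.9 in sham and 634 and 589 in PMCAO. Every PMCAO channel lay far above both sham channels, with a difference of 2.78 ± 0.07. *Fosb* measured 199 and 111 in sham and 649.8 and 663 in PMCAO, again without overlap, with a difference of 2.14 ± 0.62. *Maff*, a small Maf protein, measured 179 and 371 in sham and 805 and 677 in PMCAO and differed by 2.17 in Cy3 and 0.87 in Cy5. *Fos* itself measured 624 and 1285 in sham and 1315 and 2442 in PMCAO. Its sham Cy5 and PMCAO Cy3 signals nearly met, while within each dye PMCAO was about a doubling higher, with a difference of 1.00 ± 0.11. After the adjustment 6 of the 10 were called higher, *Fosl2* and *Jun* in addition, and the median was 0.90.

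Of 25 other immediate early genes tested, 5 were called higher and none lower, with a median of 0.50. *Npas4*, a transcription factor of neuronal activity, measured 263 and 228 in sham and 1868 and 1727 in PMCAO. Its PMCAO signals lay well clear of both sham signals in each dye, with a difference of 2.87 ± 0.07. *Gadd45g*, a stress sensor of the Gadd45 family, differed by 1.85 ± 0.49, *Ccn1*, a secreted matrix protein, by 1.55 ± 0.21, and *Klf4*, a zinc finger factor, by 1.00 ± 0.28. *Csrnp1* completed the set at 0.97 ± 0.48. *Egr1* was not called, at -0.42 in Cy3 and 0.41 in Cy5, with signals of 9093 and 6391 in sham and 6813 and 8488 in PMCAO that overlapped. *Arc* had a value in Cy5 alone, at 0.47, and *Nr4a1* likewise, at 0.53, since a spot of each was flagged in Cy3. After the adjustment the list again had 5 genes called higher, with *Egr4* in place of *Klf4* and a median of 0.44.

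Heat shock proteins hold unfolded proteins and return them to their shape. Of 15 chaperone genes tested, 2 were called higher, none lower. *Hspa1a*, the inducible Hsp70, had, with *Cd14*, the highest mean difference of the genes called, with signals of 1492 and 2154 in sham and 12142 and 16799 in PMCAO at its brightest probe. PMCAO exceeded sham about 8-fold in either dye, with a difference of 2.99 ± 0.04. Its other 3 probes were called higher as well, at 7.98-, 3.64- and 19-fold in the mean of both dyes. Because *Hspa1b* is nearly identical and no probe here carries its name, these signals cannot be assigned to 1 of the 2 genes. *Hspb1*, a small heat shock protein, measured 533 and 527 in sham and 1462 and 1889.8 in PMCAO and differed by 1.65 ± 0.27, and its dimmer probe, not well above background on any array, read -0.08. *Dnajb1* was past 1.5-fold in Cy5 alone, at 0.48 in Cy3 and 1.06 in Cy5. Both calls remained after the adjustment, and the list median went from 0.48 to 0.33.

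Genes of the integrated stress response showed little. Of 13 tested, *Ppp1r15a*, the phosphatase subunit that restores translation, was called higher at 0.84 ± 0.10, and *Psat1*, a serine synthesis enzyme, was called lower at -0.66 ± 0.07, and neither kept its call after the adjustment. *Ddit3* (CHOP) differed by 0.30 in Cy3 and 1.40 in Cy5, and *Fgf21* was not tested because its probes were dim. The list median was 0.01, and 0.06 after the adjustment. Of 18 hypoxia-inducible genes tested, none was called in either direction and the median was 0.04, or 0.22 after the adjustment. *Vegfa* differed by -0.06 in Cy3 and 1.33 in Cy5 at its brightest probe. *Adm* (adrenomedullin) measured 193 and 284 in sham and 271 and 282 in PMCAO, with overlap, and was called higher only after the adjustment, at 0.67.

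Chemokines draw leukocytes from the blood. Of 14 tested, 5 were called higher and 1 lower, with a median of 0.50. Genes such as *Cxcl1* passed the filter on background through the PMCAO channels, and over the 18 chemokine genes with a value in all 4 channels the median was 0.20. *Ccl2*, which attracts monocytes, measured 89.3 and 94.5 in sham and 386 and 384 in PMCAO. The sham signals were low against the 50 units in each value, which pull the difference of 2.07 ± 0.06 towards 0. *Ccl4* measured 84.7 and 76.4 in sham and 469 and 333 in PMCAO, with a difference of 2.30 ± 0.25, and *Ccl3* measured 88.0 and 127 in sham and 237 and 208 in PMCAO, with 1.07 ± 0.51. PMCAO lay above sham without overlap for each of the 3, which their calls favour. *Cxcl1*, a neutrophil attractant, was well above background in 1 of the 2 sham channels and measured 70.2 and 73.2 in sham and 132 and 144 in PMCAO, a difference of 0.94 ± 0.05. *Ccl17* was called higher at 0.83 ± 0.29, a call that did not remain after the adjustment. *Cxcl12*, made constitutively in brain, was lower at -0.88 ± 0.17, with signals of 1808 and 1794 in sham and 904 and 1059 in PMCAO. That gene's call was also lost after the adjustment, at -0.44. With *Ccl9* added, 5 genes were then called higher and none lower, and the median of the 14 was 0.48.

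Of 9 cytokine genes tested, only *Inhba* was called, the subunit of activin A, which neurons make after activity. It measured 677 and 471 in sham and 1482 and 1493 in PMCAO, a difference of 1.40 ± 0.38. *Il1b* differed in opposite directions, 0.33 in Cy3 and -0.76 in Cy5, with signals of 83.4 and 158 in sham and 105 and 93.1 in PMCAO. *Tnf* was well above background in the PMCAO channels but in neither sham channel, and passed the filter through PMCAO. Its mean difference was 0.22, and the size depended on the processing. It was 0.38 with a background offset of 16 units and 2.81 with the processed signal of the scanner software. *Il6* was not tested, with 1 channel of each group well above background and signals of 65.3 to 78.2. *Inhba* kept its call after the adjustment, and the list median went from 0.15 to -0.05.

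Signalling downstream of cytokines was read through 17 genes of NF-kB and STAT3 feedback, of which 5 were called higher and none lower, with a median of 0.51. *Socs3*, the inhibitor that STAT3 induces, measured 375 and 433 in sham and 1729 and 1406 in PMCAO. Both PMCAO signals were more than 3 times either sham signal, with a difference of 1.95 ± 0.36. *Stat3* itself measured 1200.5 and 473 in sham and 2079 and 1525 in PMCAO, with a difference of 1.24 ± 0.63. *Il4ra*, a receptor chain for interleukin-4, differed by 1.81 ± 0.57, *Zfp36*, which speeds the decay of cytokine messages, by 1.12 ± 0.14, and *Nfkbiz* by 0.76 ± 0.19. After the adjustment all 5 kept their calls, *Birc3* was added, and the median was 0.44.

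Among 12 genes of endothelial activation and adhesion, 4 were called higher and none lower, with a median of 0.53, and after the adjustment 5, with a median of 0.45. Without the filter on background the median was 0.37 over 14 genes. *Plaur*, the urokinase receptor, measured 126 and 127 in sham and 363 and 355 in PMCAO and differed by 1.51 ± 0.03. *Plat*, the tissue plasminogen activator, differed by 0.97 ± 0.12. *Adamts1*, a secreted protease, differed by 1.42 in Cy3 and 0.66 in Cy5. PMCAO exceeded sham in these 3 genes without overlap, which their calls favour. *Ptgs2* (cyclooxygenase-2) measured 182 and 357 in sham and 376 and 525 in PMCAO at its brightest probe and was just short of the threshold in Cy5, at 1.05 in Cy3 and 0.56 in Cy5, while its other probe was called higher. *Icam1*, a leukocyte adhesion molecule, measured 157 and 164 in sham and 278 and 232 in PMCAO and missed the call in Cy5, at 0.82 in Cy3 and 0.50 in Cy5. *Sele* was not well above background on any of the 4 channels.

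Reactive astrocyte genes had 4 of 19 tested called higher and none lower, with a median of 0.35. *Cd14*, the co-receptor for bacterial lipopolysaccharide, measured 178 and 97.5 in sham and 1193 and 920.2 in PMCAO, and PMCAO was several-fold above sham in both dyes, with a difference of 2.99 ± 0.35. *Timp1*, an inhibitor of metalloproteinases, measured 414 and 138 in sham and 1460.1 and 1243 in PMCAO, with a difference of 2.49 ± 0.95, and its dimmer probes differed by 1.02 and 0.85. *Lcn2*, an iron-carrier binding protein, measured 99.0 and 89.4 in sham and 184 and 235 in PMCAO, a difference of 1.15 ± 0.35, and *Sphk1*, which makes sphingosine 1-phosphate, differed by 1.78 ± 0.22. All 4 kept their calls after the adjustment, *Emp1* was added, and the median was 0.41. *Gfap* was not called at any of its 3 probes.

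Of 9 neutrophil genes tested, 3 were called higher and none lower. *S100a9*, 1 chain of calprotectin, measured 540.1 and 487 in sham and 2980.1 and 2356 in PMCAO, and the PMCAO signals were several times the sham signals, with a difference of 2.37 ± 0.14. Its partner *S100a8* measured 128 and 145 in sham and 327 and 293 in PMCAO, a difference of 1.18 ± 0.24, and *Retnlg*, above background in 1 of the 2 sham channels, measured 75.9 and 89.6 in sham and 157 and 169.9 in PMCAO, a difference of 0.99 ± 0.09. All 3 kept their calls after the adjustment. Another 3 genes of the list had no channel well above background. *Mpo*, myeloperoxidase, differed by 0.14 in Cy3 and 0.31 in Cy5, and *Mmp9* by 0.03 in Cy3 and 0.03 in Cy5. The list median was 0.22, and 0.01 after the adjustment. The summed signal of the list was 1271 and 1198 in sham and 4003 and 3346 in PMCAO, and *S100a9* supplied most of this gap. None of 6 T and NK lymphocyte genes was called. Of 3 erythrocyte genes none was called, *Hba-a1* differing by 0.32 in Cy3 and 1.08 in Cy5. The part of blood cells in the other differences was not tested.

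Glucocorticoid-responsive genes had 6 of 12 tested called higher and none lower, with a median of 0.86. *Cdkn1a* (p21), a cell cycle inhibitor that p53 also induces, measured 368 and 259 in sham and 1331 and 1438 in PMCAO, a difference of 2.16 ± 0.44, and was the only 1 of 15 genes called in the list of p53 targets, Bcl2 family and caspases. *Errfi1*, which restrains the EGF receptor, differed by 1.03 ± 0.13, *Fkbp5*, a co-chaperone of steroid receptors, by 0.79 ± 0.13, *Pdk4* by 0.93 ± 0.48, and *Arrdc2* by 1.47 ± 0.99. *Plin4*, a lipid droplet protein, differed by 0.95 ± 0.19. After the adjustment 4 of the 6 kept their calls and the median was 0.69, *Pdk4* and *Plin4* losing theirs. *Sgk1* differed the other way at -0.67 in Cy3 and -0.17 in Cy5, without a call. *Nr3c1*, the glucocorticoid receptor, measured 1912 and 3629.6 in sham and 1003 and 1171 in PMCAO and was called lower at -1.28 ± 0.50, also after the adjustment.

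In oxidative stress defence, *Hmox1*, which degrades heme, measured 257 and 180.2 in sham and 566 and 518 in PMCAO. It was called higher at 1.33 ± 0.27 and was the only gene of 14 so called at its brightest probe. *Cat*, catalase, was called lower at -0.73 ± 0.10, which was not so after the adjustment. *Mt2* differed by 0.61 in Cy3 and 0.12 in Cy5. Among 10 growth factor genes, *Bdnf*, the brain neurotrophin, measured 823 and 697 in sham and 1367 and 1451 in PMCAO, a difference of 0.89 ± 0.23. Its second probe, of 35% G and C, differed by 0.50 in Cy3 and -0.30 in Cy5 and was not called. *Pgf*, placenta growth factor, was called higher at 0.62 ± 0.01 and lost the call after the adjustment. The growth factor list had a median of -0.20 before it and 0.11 after it, and the oxidative stress list 0.17 and 0.13.

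**Figure D3:**
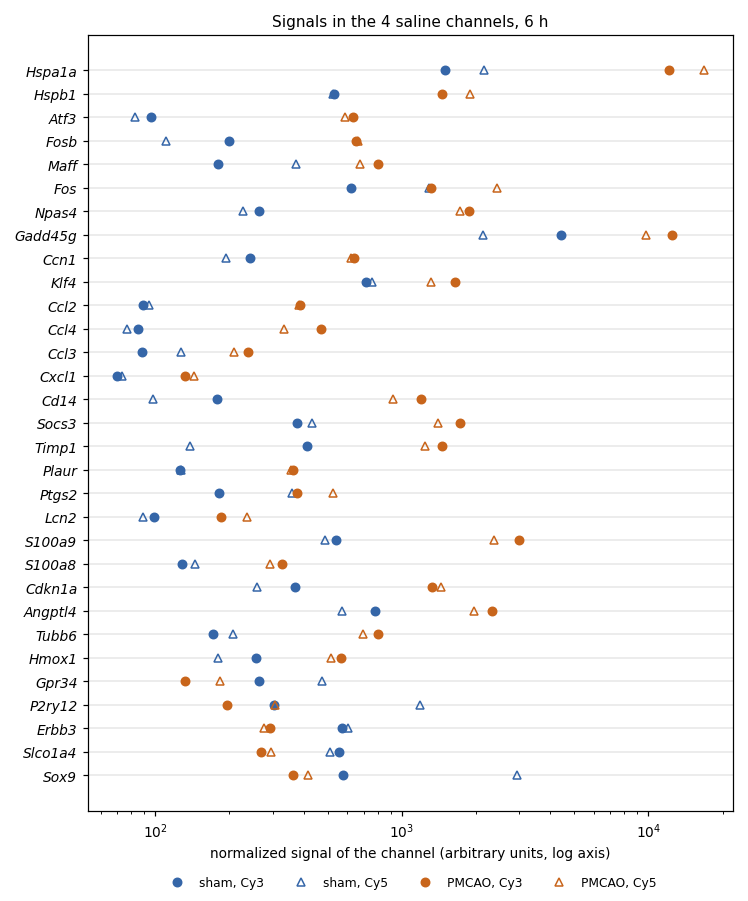
Normalized signals (horizontal log axis, arbitrary units) of 31 genes in the 4 saline channels at 6 h, sham and PMCAO each in Cy3 and Cy5, 1 point a channel. PMCAO lies to the right of both sham points for Hspa1a, Atf3, Npas4, Cd14 and S100a9, whereas P2ry12 and Sox9 owe their spread mostly to the sham Cy5 point.

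Outside these lists, genes were taken in 2 orders. The 15 highest by the mean of both dyes included *Hspa1a*, *Cd14*, *Npas4*, *Atf3*, *Timp1*, *S100a9* and *Ccl4*, described above, and 14 of the 15 kept their calls after the adjustment. Yet *Rnaset2b*, a ribonuclease, measured 1283 and 63.4 in sham and 2019.6 and 1967 in PMCAO, so its difference came almost wholly from 1 sham channel (0.65 in Cy3 and 4.96 in Cy5). *Stoml1* (0.86 in Cy3 and 3.79 in Cy5) and *Ap2s1*, a subunit of the clathrin adaptor (0.73 in Cy3 and 3.72 in Cy5), were alike in this. In the PACAP38 pools *Rnaset2b* and *Stoml1* differed by 4.92 and 3.72 in Cy3, where the sham Pooled 2 array again entered, and by 0.28 and 0.18 in Cy5, where it did not. An order by the smaller of the 2 dye differences, added after seeing the data, put *Hspa1a*, *Npas4*, *Cd14* and *Atf3* first.

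Among the other genes high in that second order, *Tubb6*, a beta-tubulin, measured 171 and 207 in sham and 801 and 694 in PMCAO. *Akap12*, a scaffold for protein kinase A, measured 1530.5 and 1578 in sham and 5492 and 4689 in PMCAO. *Lmna*, the nuclear lamin A, measured 700.3 and 514 in sham and 2466 and 1881 in PMCAO. The PMCAO signals were about 3 to 5 times those of sham in each of the 3, and the differences were 1.99 ± 0.34, 1.71 ± 0.19 and 1.84 ± 0.04. *Angptl4*, a secreted inhibitor of lipoprotein lipase, differed by 1.68 ± 0.15, *Depp1*, a target of FOXO factors, by 2.33 ± 0.41, *Tmem252* by 2.21 ± 0.37, and *Phactr3*, a regulator of phosphatase and actin, by 1.89 ± 0.43. *Trex1*, which degrades DNA in the cytosol, differed by 1.61 ± 0.10, *Prelid1*, a mitochondrial lipid transfer protein, by 1.66 ± 0.19, and *H3c14*, a histone H3, by 1.53 ± 0.05. *Jph4*, a junctophilin of neurons, measured 521 and 895 in sham and 2353 and 2611 in PMCAO, a difference of 1.86 ± 0.45. *Drd4*, a dopamine receptor, measured 114 and 74.2 in sham and 329 and 349.7 in PMCAO, with a difference of 1.89 ± 0.50. Each of these genes kept its call after the adjustment. The unnamed loci LOC435752, LOC436332 and LOC194985 were higher too, by 2.28 ± 0.85, 2.49 ± 0.80 and 2.08 ± 0.88.

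Genes called lower depended more on the array that stood apart. Of the 15 lowest by the mean of both dyes, 14 had a Cy5 difference more than 2 times their Cy3 difference in size, against 4 of the 15 highest, and 9 of the 15 kept their calls after the adjustment. *Zfp781*, a zinc finger gene, measured 281 and 3150.1 in sham and 152 and 257 in PMCAO, so that 1 sham channel stood far above the other 3. *Sox9*, a transcription factor of astrocytes, measured 579 and 2936 in sham and 363 and 417 in PMCAO, with the sham Cy5 signal again apart from the other 3. LOC435366 differed by -0.77 in Cy3 and -3.99 in Cy5, and in the PACAP38 pools by -4.04 in Cy3 and -0.36 in Cy5, again with the large value where the sham Pooled 2 array entered. Of the 450 probes called lower, 42 (9.33%) also passed 1.5-fold lower in the Cy5 channels of the PACAP38 pools, on arrays without it, against 1.21% of all tested probes. In the Cy3 channels, with it, 268 of 282 (95%) did, against 17.6%. Each of these channels shared an array with a saline channel used for the calls, so the calls favour both shares.

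Genes lower in both dyes, some of them by similar amounts, were found as well, and those named here kept their calls after the adjustment. *Erbb3*, a neuregulin receptor, measured 573 and 608 in sham and 293 and 275 in PMCAO. Its PMCAO signals were near 0.5 of the sham signals in either dye, a difference of -1.06 ± 0.12. *Slco1a4*, an organic anion transporter of the brain endothelium, measured 555 and 513 in sham and 269 and 295 in PMCAO, a difference of -0.92 ± 0.17. *Gpr34*, a lysophospholipid receptor of microglia, measured 263 and 475 in sham and 132 and 183 in PMCAO, with a difference of -1.19 ± 0.26, and in this gene too all PMCAO signals lay below both sham signals. *Mycn*, a Myc family factor, differed by -1.06 in Cy3 and -1.63 in Cy5, *Mex3b*, an RNA-binding protein, by -1.08 in Cy3 and -1.58 in Cy5, and *Zfp97* by -1.20 in Cy3 and -1.28 in Cy5. *Sos2*, an exchange factor for Ras, differed by -1.20 ± 0.39, *Hp1bp3*, a heterochromatin protein, by -1.33 ± 0.36, and *Dsel* by -1.21 ± 0.45. In *Sos2*, *Hp1bp3* and *Dsel* this spread exceeded the median technical SD of 0.27 over the tested probes. *Mycn* and *Mex3b* differed more in Cy5, where the sham array that stood apart entered.

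The tissue held the markers of neurons, astrocytes, microglia, oligodendrocytes and endothelium above background, while olfactory and cerebellar genes were read because those parts had been removed. Of the 176 genes tested in the 17 marker lists, 5 were called higher (2.84%) and 10 lower (5.68%), against 2.8% and 2.3% of all genes tested. After the adjustment 5 were higher and 3 lower (1.7%), against 1.82% and 0.487% of all. These were not the same genes, since *Bcl11b* and *Doc2g* lost the call of higher and *Mal* and *Opalin* gained it, and of the 10 lower genes *Gpr34* and *Slco1a4* remained, with *Kcne2* added. Of 16 homeostatic microglia genes, 3 were called lower and none higher. Besides *Gpr34*, these were *P2ry13* at -0.70 ± 0.13 and *P2ry12*, a purinergic receptor, at -0.63 in Cy3 and -1.96 in Cy5, with signals of 303 and 1183 in sham and 196 and 305 in PMCAO. *Gpr34* alone was called after the adjustment. *Cx3cr1* differed by -0.56 in Cy3 and 0.25 in Cy5, *Tmem119* by 0.13 in Cy3 and 0.94 in Cy5 and *Aif1* by -0.11 in Cy3 and -0.03 in Cy5, and the list median was 0.10, or 0.02 after the adjustment.

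The medians of the neuronal lists differed between the dyes. None of 14 genes of striatal medium spiny neurons was called, and their median of 0.06 joined -0.27 in Cy3 and 0.26 in Cy5. The dopamine receptors *Drd1* and *Drd2* differed by -0.36 in Cy3 and 0.71 in Cy5 and by -0.07 in Cy3 and -0.26 in Cy5. Among 16 cortical projection neuron genes *Bcl11b* was called higher at 1.14 ± 0.66, and among 12 interneuron genes *Vip* was called lower at -0.86 ± 0.33. The Cy3 and Cy5 medians of these lists were -0.20 and 0.02 for projection neurons and -0.16 and 0.11 for interneurons. Of 27 glutamate and GABA receptor genes, *Gabra2* and *Gabra5*, alpha subunits of the GABA-A receptor, were called lower at -0.79 ± 0.19 and -0.64 ± 0.03, and the list median was -0.24, with -0.06 in Cy3 and -0.38 in Cy5. Of 24 voltage-gated channel genes, *Cacng3* was called higher at 0.89 ± 0.20 and *Kcnab1* lower at -0.75 ± 0.05. Of these 6 genes *Cacng3* alone was called after the adjustment, when the medians were -0.18 for striatal, 0.02 for projection neuron, -0.20 for interneuron, -0.14 for receptor and 0.12 for channel genes.

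Among glia and vessels, none of 15 myelin genes was called, with a list median of 0.17 that joined -0.16 in Cy3 and 0.50 in Cy5. After the adjustment the median was 0.13 and *Mal* and *Opalin* were called higher. Of 10 resting astrocyte genes *Sox9* and *Gjb6*, the gap junction protein connexin 30, were lower, the latter at -0.64 ± 0.02 with signals of 5479.8 and 6236 in sham and 3487 and 4052 in PMCAO. Of 14 endothelial genes *Slco1a4* and *Abcb1a*, the P-glycoprotein pump, were lower, *Abcb1a* at -1.07 ± 0.55. *Cldn5*, the main claudin of brain endothelium, differed by 0.17 in Cy3 and 1.46 in Cy5. *Sox9*, *Gjb6* and *Abcb1a* lost their calls after the adjustment. Of 10 choroid plexus genes *Sostdc1* was called lower at -0.84 ± 0.35, with a list median of -0.41, and *Ttr* had a flagged spot. After the adjustment that median was -0.10, and *Kcne2*, a potassium channel subunit, was the gene called lower. Of 12 thalamus genes *Tcf7l2* was lower at -1.20 ± 0.65, and of 9 olfactory bulb genes *Doc2g* was higher at 0.70 ± 0.05, with *S100a5* at 0.35 in Cy3 and -0.11 in Cy5. *Sostdc1*, *Tcf7l2* and *Doc2g* lost their calls after the adjustment, and the medians went from -0.27 to -0.12 for the thalamus and from 0.14 to 0.21 for the olfactory bulb. No hypothalamus, pituitary, cerebellum or serotonergic and dopaminergic gene was called, of 11, 5, 9 and 10 tested.

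**Figure D4:**
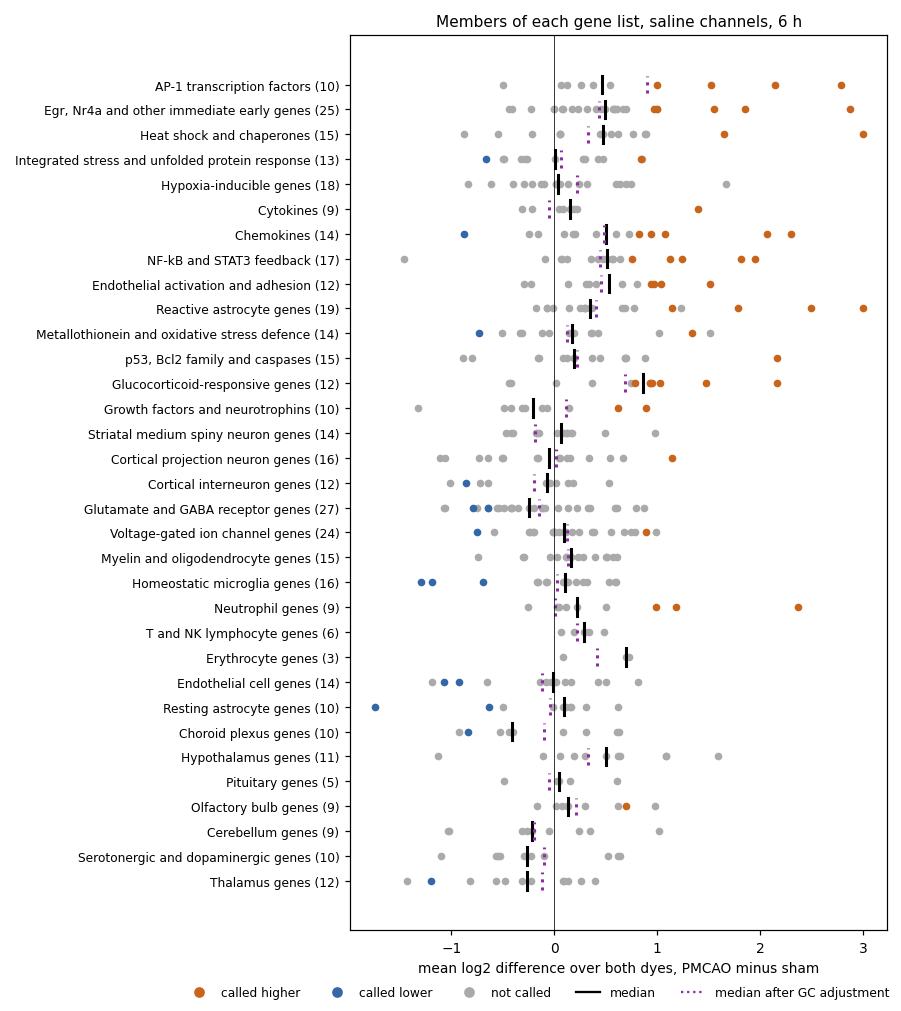
Mean log2 difference between PMCAO and sham over both dyes (horizontal axis) of the tested members of 33 gene lists (rows, number tested in brackets), each member a point, called members in colour, with a solid mark at the list median and a dotted one at the median after the adjustment. The called members of the immediate early and glucocorticoid-responsive lists lie to the right of 0, as do those of the chemokine list except Cxcl12, and most marker lists scatter around 0.

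Neither the gene of PACAP nor the tested genes of its receptors were called. *Vip*, given above, was called lower, a call lost after the adjustment. *Adcyap1*, which encodes PACAP, measured 687 and 388 in sham and 640.4 and 687 in PMCAO, and its difference was of opposite sign between dyes, -0.10 in Cy3 and 0.82 in Cy5. The brightest tested probe of *Adcyap1r1*, the PAC1 receptor, differed by -0.07 in Cy3 and -0.04 in Cy5, and *Vipr1* by 0.11 in Cy3 and 0.17 in Cy5. *Vipr2* was not well above background on any channel. *Dpysl2*, the transcript of CRMP2, differed by 0.15 in Cy3 and 0.94 in Cy5 at its tested probe, while its bright probe had a flagged sham spot. *Actb* differed by 0.47 in Cy3 and -0.57 in Cy5.

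The PACAP38 channels of the same 4 arrays gave a second pair of pools from other mice, which share arrays and normalization but no RNA with the saline pools. There, 479 of 23927 probes were called higher (2%) and 82 lower (0.343%). Of the 635 probes higher with saline, 265 were also called higher with PACAP38, 41.7% of the one list and 55.3% of the other. For the lower probes this was 29, or 6.44% and 35.4%, and no probe was called in opposite directions. Of the 635 higher probes 570 were tested there, and of the 450 lower ones only 282, so the 265 and 29 were 46.5% and 10.3% of those that could be called. In the Cy5 channels of the PACAP38 pools alone, without the sham array that stood apart, 311 of the 635 probes (49%) passed 1.5-fold higher, against 4.49% of all tested probes. In their Cy3 channels, with that array, 525 of 570 (92.1%) did, against 18.3%. Each of these channels shared an array with a saline channel used for the calls, so the calls favour such overlap in the PACAP38 pools. *Npas4* differed by 2.99 in Cy3 and 2.86 in Cy5 there, *Atf3* by 3.35 in Cy3 and 3.28 in Cy5 and *Ccl4* by 3.02 in Cy3 and 3.20 in Cy5. *Hspa1a* differed by 4.28 in Cy5, its Cy3 spot being flagged. *Fkbp5* differed by 0.01 in Cy3 and -0.89 in Cy5, and *Plin4* by -0.13 in Cy3 and -0.83 in Cy5, neither called higher as they were with saline.

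In the saline pools of 24 h, on another slide, 977 of 27586 probes (3.54%) were called higher and 446 (1.62%) lower. Of the 635 probes higher at 6 h, 140 (22%) were also higher at 24 h, which made 14.3% of the list of 24 h, and 36 of the 450 lower probes (8%) were lower then too (8.07%), while 3 higher and 1 lower probe were called the opposite way. The 4 channels of each time were compared within their own slide, so time and slide cannot be told apart. *S100a9* differed by 2.37 at 6 h and 5.97 at 24 h, *Ccl2* by 2.07 and 5.19, and *Timp1* by 2.49 and 3.66. *Il1b*, -0.22 at 6 h, was 2.74 at 24 h. *Hspa1a* read 2.99 and 3.21. On the other side, *Npas4* read 2.87 and 0.30, *Inhba* 1.40 and 0.22, *Bdnf* 0.89 and -0.50, and *Jph4* 1.86 and -0.69.

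**Figure D5:**
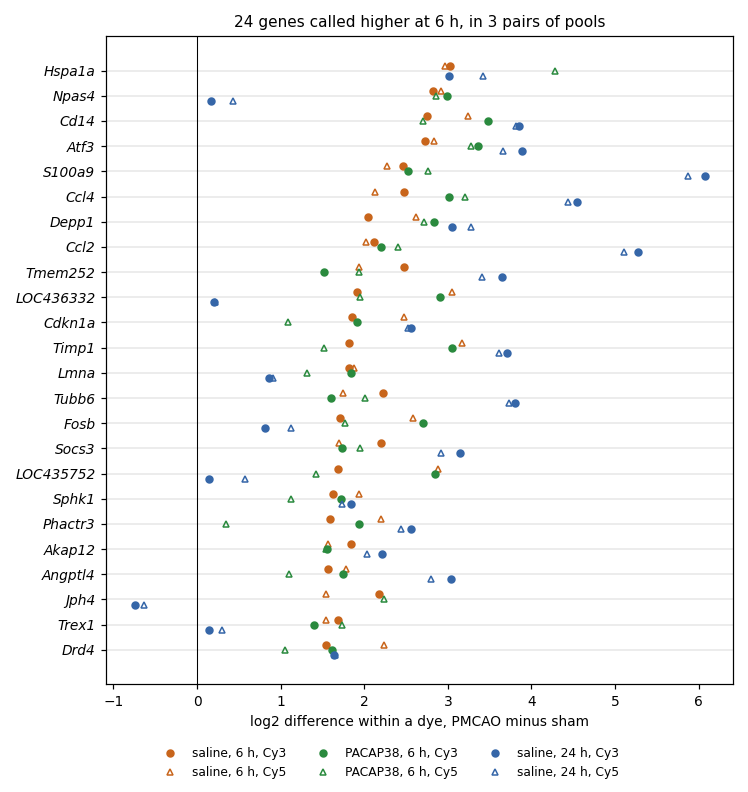
Log2 difference between PMCAO and sham within a dye (horizontal axis) for 24 genes called higher at 6 h, in the saline pools of 6 h, the PACAP38 pools of 6 h and the saline pools of 24 h, with Cy3 and Cy5 as separate points. S100a9 and Ccl2 reach their highest values in the 24 h pools, where Npas4 lies near 0 and Jph4 below it.

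The 4 pairs of pools (saline and PACAP38, 6 h and 24 h) allowed a limma test of the 6 h difference over both injections, with 2 residual degrees of freedom. It called 5919 of 21286 probes (27.8%) higher and 5761 (27.1%) lower at an adjusted p under 0.05. Pairs of one time share arrays, however, so the deviation of 1 array enters both. In fits of a single dye, in which no 2 pools share an array, limma called none, with 2498 higher and 2451 lower at an unadjusted p under 0.05 in Cy3 and 1305 and 1098 in Cy5. The smallest adjusted p was 0.181 in Cy3 and 0.385 in Cy5. The same fit compared the difference at 6 h with that at 24 h, with 4826 probes (22.7%) higher at 6 h and 4043 (19%) lower in limma, and none in either dye alone. Calls of this test are not used as support for any gene.

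The promoters of genes called higher were searched for 5 motifs of factors active after ischemia, on both strands, from 250 bases before to 50 after each start in RefSeq (GRCm38.p6). Of 60 named genes called higher, 46 had a promoter in the table, and of 40 called lower, 26. The cyclic AMP response element TGACGTCA was in 3 of the 46 genes (6.52%), *Errfi1*, *Maff* and *Ppp1r15a*, against 2.03% of 27025 genes. The AP-1 site TGANTCA was in 4 (8.7% against 8.97%), namely *Bdnf*, *Lmna*, *Plaur* and *Sphk1*, and the CArG box of serum response factor in *Zfp36* alone (2.17% against 1.81%). The heat shock element (GAA, TTC and GAA, each 2 bases apart) was in none (0.662% of all), and the hypoxia element ACGTG in 12 (26.1% against 21.8%). None of the first 4 motifs was in the 26 promoters of genes called lower, and ACGTG was in 6 (23.1%). By promoter instead of gene, the shares over 32851 promoters were 1.79%, 7.81%, 1.63%, 0.603% and 19.6%, in the order given. A match of ACGTG on the other strand can share bases with the response element, as in *Errfi1*. The 100 bases before the start are shown for 6 genes, 5′ to 3′ on the strand of the gene, with the motif in capitals, because the 3 response elements lie close to the start.
Errfi1, chr4:150854970-150855069, plus strand: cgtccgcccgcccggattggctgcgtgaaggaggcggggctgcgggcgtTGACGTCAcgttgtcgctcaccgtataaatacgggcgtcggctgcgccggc
Maff, chr15:79347420-79347519, plus strand: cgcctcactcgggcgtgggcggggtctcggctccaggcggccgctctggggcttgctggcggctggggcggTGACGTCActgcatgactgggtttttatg
Ppp1r15a, chr7:45526269-45526368, minus strand: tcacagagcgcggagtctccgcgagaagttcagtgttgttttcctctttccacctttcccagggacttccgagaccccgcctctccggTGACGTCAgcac
Plaur, chr7:24462383-24462482, plus strand: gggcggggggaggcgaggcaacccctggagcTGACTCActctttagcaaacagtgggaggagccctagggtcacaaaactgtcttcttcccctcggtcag
Sphk1, chr11:116531737-116531836, plus strand: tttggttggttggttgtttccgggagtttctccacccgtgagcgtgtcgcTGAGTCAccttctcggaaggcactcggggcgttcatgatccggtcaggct
Zfp36, chr7:28379229-28379328, minus strand: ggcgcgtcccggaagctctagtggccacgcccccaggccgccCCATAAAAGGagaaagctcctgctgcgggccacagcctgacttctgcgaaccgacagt
The response element began at positions -51, -29 and -12, counted from the start, in *Errfi1*, *Maff* and *Ppp1r15a*, whose differences were 1.03, 1.52 and 0.84. These matches are descriptions of sequence, and binding was not measured.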

How the data were processed

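The authors hybridized PACAP38 and saline RNA of a group together on Agilent two-colour arrays of the mouse genome and deposited the scanner output of Feature Extraction (per the file headers version 9.5.1.1 for the 6 h arrays, version 9.5.3.1 for those of 24 h). The deposited intensity of a spot is its mean signal in each dye, with the median of its local background, neither of them normalized, and the deposited flags give, for each spot, whether it is an outlier and whether it lies well above background. The table of ratios, the log ratios and the p-values that the authors also deposited compare PACAP38 with saline and were not used.

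From these values, background was corrected in limma 3.58.1 under R 4.3.3 (normexp, offset 50), followed by loess within arrays and Aquantile between the 4 arrays of a slide, with control spots and outlier spots left out and spots of one probe averaged. PMCAO minus sham was taken within a dye and averaged over the 2 dyes. The methods used thresholds of 1.5-fold and 0.75-fold. Gene names came from RefSeq for 23075 probes by accession, 6582 by symbol and 3077 by an older symbol, 1449 kept the name in the file, and 6991 had none. For a gene with several probes the brightest tested probe was used. The adjustment for G and C content used lowess with a span of 0.3 and 3 robust rounds (statsmodels 0.14.6). Tables were made in Python 3.11.15 with numpy 2.4.6 and pandas 2.3.3, plots with matplotlib 3.10.9.

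Named genes were the 15 highest and 15 lowest called genes, up to 4 called members of each list with the largest differences, and a set of genes that define their lists; those from the order by the smaller dye difference were added after seeing the data, as were other list members given for context. The members and the 33 lists (529 genes) were chosen with earlier results of these data known. The limma test used Benjamini-Hochberg adjustment at 0.05 on the 4 pairs of pools, each the mean of both dyes. Counting and tests were checked on simulated data. The number of arrays limits the precision.

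The alternatives were quantile normalization without loess, the processed signal minus its 75th percentile, an offset of 16, no filter or a stricter filter on background, flagged spots kept or background outliers left out, either dye alone, other thresholds, counting genes, the mean of all probes, a trended prior in limma, and the fit without the pools of 24 h. Some items covered by the named-gene rule are not reported here.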

Additional observations from a re-analysis of the deposited data

Results flagged for a closer look

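The difference between PMCAO and sham was compared between 6 h and 24 h, over both injections, in limma's test on 4 pairs of pools. The genes were those of the named-gene rule and of the order by the smaller dye difference, not all of them given in the text. Of the 102 with a value, 53 had an adjusted p under 0.05. Of these, 20 also had an unadjusted p under 0.05 in each dye alone, 7 of them lower at 6 h. Of all tested probes, 22.7% were higher and 19% lower at 6 h at the same adjusted threshold. Most of the named genes were chosen for their saline difference at 6 h, which enters this test, so the choice favours a difference and the values are descriptions only. No gene passed the adjusted threshold in a single dye, where 1460 probes higher and 964 lower at 6 h had an unadjusted p under 0.05 in Cy3 and 625 and 403 in Cy5, so these values are given for a closer look only. Time and slide cannot be told apart.

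In 13 genes the value was larger at 6 h. The log2 difference at 6 h minus that at 24 h was 2.94 for *Npas4*, 1.91 for *Fosb*, 1.81 for *Inhba* and 1.57 for *Bdnf*. It was 1.38 for *Bcl11b*, a transcription factor of neurons, and 1.34 for *Cacng3*, a subunit that goes with AMPA receptors. *Lmna* had 1.03, *Trex1* 1.41, *Prelid1* 1.60 and *H3c14* 1.18. The loci LOC194985, LOC435752 and LOC436332 had 1.72, 1.90 and 2.31.

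In the other 7 genes it was smaller. The value was -2.59 for *Ccl2*, -2.56 for *Plin4* and -1.72 for *Lcn2*. It was -1.60 for *Hmox1*, -1.34 for *Plaur*, -1.23 for *Gfap* and -0.94 for *Gjb6*. For *Plin4* the 2 pools of 6 h differed in sign, 0.95 ± 0.19 with saline and -0.13 in Cy3 and -0.83 in Cy5 with PACAP38.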

How the results depend on the processing

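No paired analysis was possible because each group is 1 pool, the replicate number stands for the dye, and every difference is already taken within a dye. The calls of 635 probes higher and 450 lower changed in number with the processing. Quantile normalization gave 297 lower, the processed signal of the scanner software 3004 and 1671, and a background offset of 16 units 990 and 918. A rule on the mean of both dyes, above 1.5-fold or below 0.75-fold, gave 2560 and 4472. Its limit for lower is the looser one. Requiring 2-fold in both dyes gave 127 and 12, and the adjustment for G and C content 434 and 91. By gene symbol 408 were higher. Either dye alone gave 993 to 4718 higher and 767 to 4845 lower, the lower ends without the sham Pooled 2 array. The processed signal shifted the median of all probes by 0.12. The share of calls that were higher was 58.5% as reported and 91.4% at 2-fold. It was 36.4% under the rule on the mean, whose unequal limits favour calls of lower.

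In the 16 pathway lists 251 genes were tested, 41 called higher (16.3%) and 6 lower (2.39%). Over all genes tested these shares were 2.8% and 2.3%. The processed signal gave 68 and 10, Cy3 alone with the adjustment 64 higher, the adjustment 0 lower, the mean of all probes of a gene 2 lower, and either dye alone 59 to 83 and 12 to 37. In the marker lists, 5 were higher and 10 lower. Quantile normalization gave 3 and 4, the processed signal 21 and 21, the offset of 16 units 9 and 16, leaving out background outliers 3 higher, the adjustment 3 lower, Cy3 alone with the adjustment 10 higher, and either dye alone 8 to 41 and 16 to 35.

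In limma's test the Cy3 channels alone and the Cy5 channels alone called 0 probes higher and 0 lower, both at 6 h and between 6 h and 24 h. The processed signal gave 8891 higher at 6 h, and quantile normalization 2937 higher and 2562 lower between the times. No probe called by the rule on both dyes was called the opposite way under an alternative to that rule, and directions in limma's test were not compared. For either dye alone, the mean of both dyes, 2-fold and the filters on background, the rule itself fixes this in advance. Of the medians of lists under the alternatives 369 stayed within the spread between dyes and 27 did not, and of the values of named genes 1138 and 181. Apart from the base composition, for which values are given, the cause of these changes was not tested. With 1 pool a group, neither the number of mice nor the depth of an array sets an error between animals.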
